A study of Mus musculus with 16 samples.

Results

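The 36 genes described here serve protein folding and quality control in the endoplasmic reticulum (ER). They were picked by name and role from the 54532 genes of the table, with earlier results of these data known. They are 5 stress sensors and the transcription factors that work with them, 13 chaperones and co-chaperones, 7 disulfide isomerases and 11 factors of ER-associated degradation. Expression was measured by RNA sequencing in 16 libraries of cultured mouse hepatocytes, labelled as a cell line with no line name. The groups were hepatocytes beside Phgdh knockout (KO) cancer cells with a CXCR2 inhibitor (n = 4), hepatocytes beside Phgdh wild-type (WT) cancer cells with the inhibitor (n = 3), hepatocytes beside KO cancer cells (n = 3), hepatocytes beside WT cancer cells (n = 3), and hepatocytes alone (monoculture, n = 3). Phgdh starts serine synthesis from glucose, and CXCR2 is a receptor for neutrophil-attracting chemokines. The study concerns serine that hepatocytes supply to pancreatic cancer cells in the liver. The sources name neither the inhibitor nor its dose or duration, no vehicle is named, and no monoculture received it. The series' own design text calls the sequenced cells the cancer cells (HY19636), in conflict with the sample labels, which were followed. Separate cultures are not stated for the replicates of a group, and the p-values below therefore cover the spread among libraries, which may be technical. In such bulk RNA, a change in the share of a kind of cell and a change in RNA per cell cannot be told apart.

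Proteins that enter the secretory pathway fold in the ER, and unfolded chains there switch on the unfolded protein response. Its 3 sensors are IRE1 (gene Ern1), which splices Xbp1 mRNA into the form that encodes an active transcription factor, PERK (Eif2ak3), a kinase that slows translation through eIF2alpha, and ATF6, which is cut in the Golgi to release a transcription factor. Together they raise chaperones, disulfide isomerases and the degradation machinery that returns misfolded proteins to the cytosol. Hepatocytes secrete most plasma proteins and depend on this system.

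Promoters of these genes carry short elements that stress factors are known to bind, and the matches in the members are listed here. The windows are from RefSeq (GRCm38.p6), 250 bases before to 50 bases after a start site, and 29 of the 36 members had one; Hyou1, Manf, Sil1, Hspa13, Derl1, Erlec1 and Atf6 did not. The ER stress element ERSE was searched on both strands as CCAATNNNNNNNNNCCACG. It was found in 9 of the 29 members (31.0%) and in 37 of 27025 gene symbols with a window (0.137%). The matches, with the fixed letters in capitals and the spacer in lower case, were:
Hspa5: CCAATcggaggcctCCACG
Hsp90b1: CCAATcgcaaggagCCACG
Hsp90b1: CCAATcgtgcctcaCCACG
Calr: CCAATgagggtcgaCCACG
Canx: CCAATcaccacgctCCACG
Dnajc3: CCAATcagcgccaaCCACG
Creld2: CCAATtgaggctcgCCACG
Pdia6: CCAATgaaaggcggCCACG
Syvn1: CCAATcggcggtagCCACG
Derl3: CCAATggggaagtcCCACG

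Hsp90b1 held the element on each strand, and Calr, Creld2 and Derl3 held it opposite to the gene. The related ERSE-II, searched as ATTGGNCCACG, was in 2 members and in 12 gene symbols (0.0444%):
Herpud1: ATTGGgCCACG
Dnajb11: ATTGGcCCACG
The element bound by XBP1 (TGACGTGG) was in Txndc5 and Txndc11 (0.714% of symbols), and the ATF4 element (TTGCATCA) was in Herpud1 (1.03% of symbols). ERSE and ERSE-II share the letters CCACG, but no match of the one overlapped a match of the other in these members. With 1 mismatch allowed, ERSE was in 15 of 29 members (51.7%) and in 1.72% of symbols. A match is a description of these letters, not evidence of binding. Members were picked by role and such elements are known in these promoters, so their higher share is no test of these data.

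The whole windows of Hspa5, which held the element, and of Eif2ak3, the member whose level moved least and the other way, show both cases. Hspa5 lies on chromosome 2 (chr2:34771840-34772139, plus strand), with its match 65 to 47 bases before the start site in capitals:
Hspa5: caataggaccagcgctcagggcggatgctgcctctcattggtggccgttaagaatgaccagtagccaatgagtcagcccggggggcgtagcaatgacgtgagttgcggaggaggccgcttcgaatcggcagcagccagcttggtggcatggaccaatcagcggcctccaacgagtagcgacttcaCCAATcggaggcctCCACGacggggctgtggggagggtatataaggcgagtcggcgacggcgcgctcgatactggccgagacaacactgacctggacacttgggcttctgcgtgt
Eif2ak3 lies on chromosome 6 (chr6:70844265-70844564, plus strand). Its window held 6 copies of CCAAT on either strand and 0 of CCACG, and none of the 4 elements:
Eif2ak3: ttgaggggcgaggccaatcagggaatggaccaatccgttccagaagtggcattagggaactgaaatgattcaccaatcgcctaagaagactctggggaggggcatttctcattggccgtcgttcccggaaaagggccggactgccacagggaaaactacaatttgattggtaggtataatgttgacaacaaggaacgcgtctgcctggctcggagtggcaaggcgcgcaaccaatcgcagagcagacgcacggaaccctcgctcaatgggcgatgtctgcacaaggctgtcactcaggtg

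Values were deposited as FPKM (by definition fragments per kilobase of gene, scaled to the library's depth), with 15001948 to 21266170 fragments recovered per library. Tests used log2(FPKM + 1) in limma, with p-values adjusted by Benjamini-Hochberg over 11395 genes and a threshold of 0.05. A log2 fold change is on that scale, which understates changes of low genes, and ± is its SE, or the SD of a mean FPKM. The hepatocyte label was checked with 14 marker genes, whose summed level was 1083 to 1134 FPKM in inhibitor-treated KO and 853 to 869 FPKM in inhibitor-treated WT co-cultures. It was 230.1 to 245 FPKM in KO co-cultures, 200.3 to 224 FPKM in WT co-cultures and 342 to 348 FPKM in monocultures. Without inhibitor 8 of the 14 averaged 1 FPKM or more in either co-culture and 9 in monoculture, and with inhibitor all 14 did, Alb reaching 461 ± 9.61 FPKM in KO and 335 ± 10.3 FPKM in WT co-cultures. The highest of the 14 without inhibitor averaged 51.1 FPKM in KO co-cultures (Trf), 49.8 FPKM in WT co-cultures (Hnf4a) and 87.7 FPKM in monocultures (Ttr). Of 12 markers of pancreatic cancer epithelium the sum was 971 to 1088, 1057 to 1221, 658 to 764, 595 to 783 and 1228 to 1321 FPKM in the same order of groups. S100a6 was the highest of them in every group, averaging 453, 490, 484, 479 and 947 FPKM in the same order. The number averaging 1 FPKM or more was 6, 6, 4, 4 and 6 of 12. Tff1 was at 0 in every library, Cldn4 and Pdx1 in every monoculture, and Epcam and Cldn4 in every inhibitor-treated WT co-culture. The pancreatic cancer sums, led by S100a6, lay above the hepatocyte sums in every group but the inhibitor-treated KO co-cultures. The markers therefore do not settle the label. The 7 cholangiocyte markers were led by Spp1 and summed to 554 to 602, 556 to 565, 428 to 448, 411 to 434 and 1225 to 1244 FPKM. All stellate, endothelial and acinar markers averaged under 1 FPKM, and of 9 macrophage markers Cd68 alone reached 1 FPKM in the co-cultures, with Adgre1, Clec4f, Cd5l, Vsig4 and Marco at 0. These lists moved with the same comparisons as the genes below, and their part in the results was not tested. Phgdh averaged 152 ± 5.60, 158 ± 2.69, 197 ± 3.82, 199.9 ± 5.79 and 206 ± 2.34 FPKM in the same order of groups. The KO groups thus lay near the WT groups of the same treatment. By the sample labels the knocked-out cells were not those sequenced. Whether the knockout lowers Phgdh mRNA was not tested, so these values do not settle which cells were sequenced.

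Co-culture raised nearly the whole folding and degradation set, and the inhibitor lowered nearly all of it again. The 36 genes summed to 6458 ± 11.3 FPKM in KO co-cultures and 6749 ± 119.8 FPKM in WT co-cultures, against 2393 ± 16.1 FPKM in monocultures. With inhibitor the sum was 3840 ± 68.1 FPKM in KO and 3633 ± 28.5 FPKM in WT co-cultures, so it lay between both in each genotype. In share of all FPKM the set made up 1.85% to 1.89% in KO and 1.90% to 2.05% in WT co-cultures, against 0.688% to 0.704% in monocultures; with inhibitor it was 1.23% to 1.25% in KO and 1.14% to 1.21% in WT co-cultures.

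Of the 36, 35 passed the filter (a mean of 1 FPKM), and each of these was at 3.45 FPKM or more in every library. The exception was the degradation factor Derl3, read at 0 to 0.196 FPKM and not tested. In KO co-culture against monoculture, 34 of the 35 rose and 1 fell, with a median log2 fold change of 1.11; over all genes tested 30.3% rose and 31.2% fell, with a median of 0.01. In WT co-culture against monoculture the counts were also 34 and 1, with a median of 1.18, beside 30.1% and 31.9% of all genes. The inhibitor lowered 33 and raised 1 in KO co-cultures (median -0.68), where 34.7% of all genes fell and 34.8% rose. Beside WT cells it likewise lowered 33 and raised 1 (median -0.77), where 33% of all genes fell and 33.5% rose. The gene that moved against the others each time was Eif2ak3, and the one not called under the inhibitor was Erp44, in both genotypes. Comparisons here share libraries and are not independent.

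Set against monoculture, the inhibitor-treated KO co-cultures still had 28 members higher and 3 lower (median 0.60), with 33.3% of all genes higher and 36.1% lower. The inhibitor-treated WT co-cultures had 27 higher and 4 lower (median 0.56), with 32.1% and 34.7%. The lower counts depended on scaling: with 1 common sum per library 32 were higher and 1 lower in KO and 30 and 1 in WT, and with quantile normalisation 30 and 1 in KO and 28 and 1 in WT. Of the 35 tested members, 22 had their highest mean in WT co-cultures and lowest in monocultures, and 8 their highest in KO co-cultures and lowest in monocultures. Of the other 5, Canx, P4hb, Derl2 and Erlec1 were lowest in inhibitor-treated WT co-cultures, and Eif2ak3 was highest in inhibitor-treated KO and lowest in WT co-cultures.

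**Figure D1:**
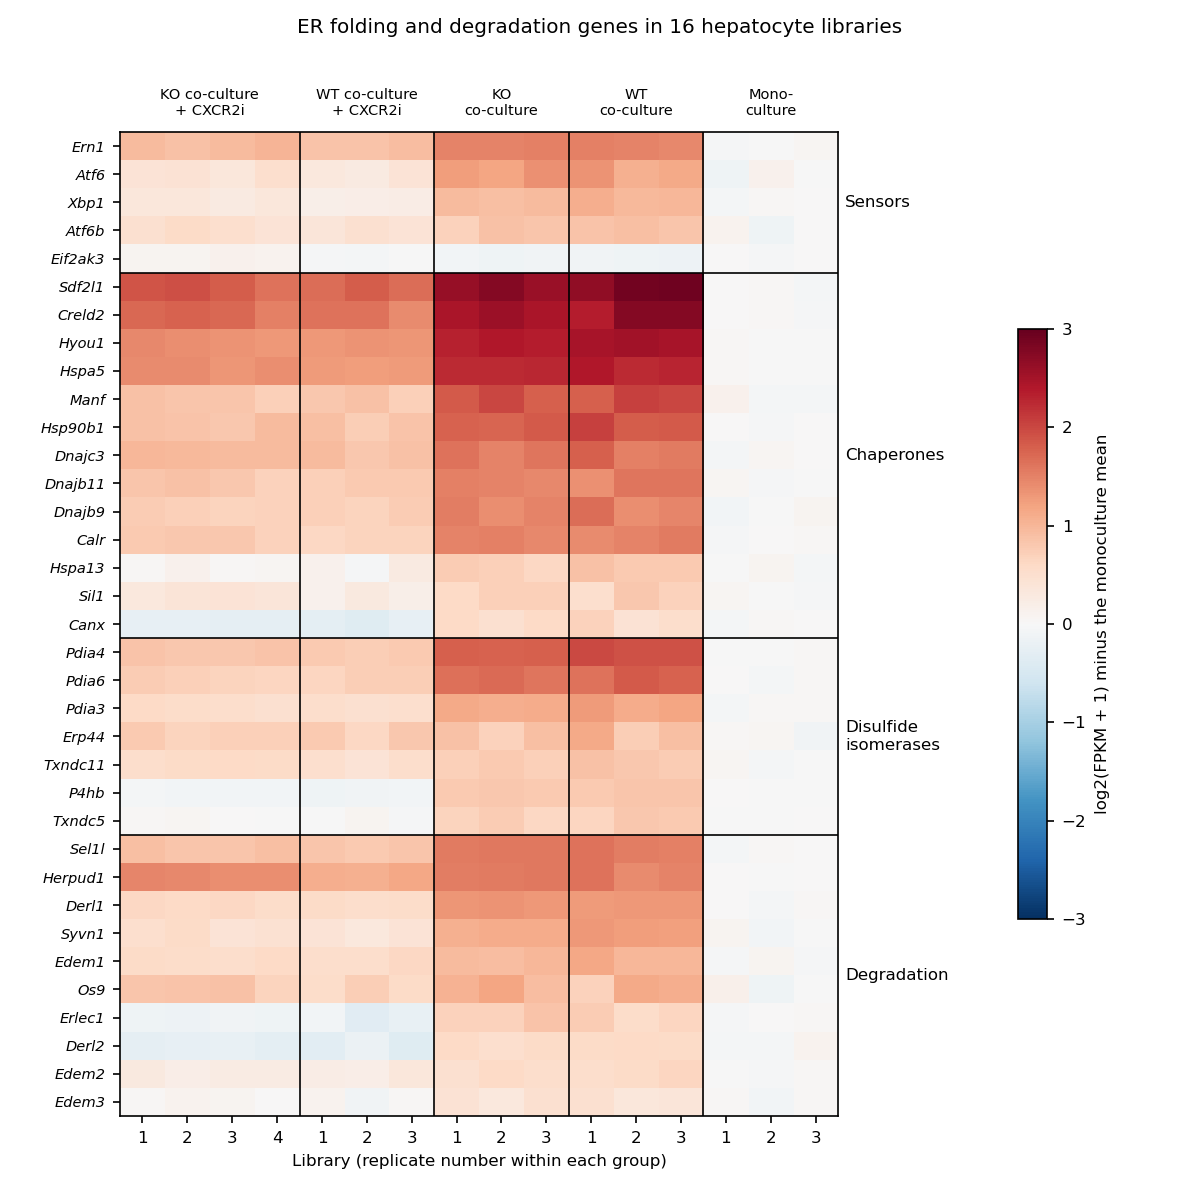
Each row is 1 of the 35 tested genes, grouped by role, and each column 1 of the 16 libraries; colour is log2(FPKM + 1) minus the gene's mean in monoculture. In most rows the 6 co-culture libraries without inhibitor are the darkest and the 7 with inhibitor paler, and Canx, P4hb, Erlec1 and Derl2 are pale blue with inhibitor.

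The sensors did not move as one. Ern1 (IRE1), Atf6, its relative Atf6b and Xbp1, the mRNA that IRE1 splices, rose in both co-cultures and were lowered by the inhibitor, whereas Eif2ak3 (PERK) fell slightly in co-culture and rose slightly with the inhibitor. Ern1 was read at 10.7, 10.2, 10.6 and 11.3 FPKM in inhibitor-treated KO co-cultures and at 9.98, 9.98 and 10.4 FPKM in inhibitor-treated WT co-cultures. Without inhibitor it was at 15.9, 15.9 and 16.2 FPKM in KO co-cultures, 16.3, 16.01 and 15.3 FPKM in WT co-cultures and 4.89, 4.95 and 5.27 FPKM in monocultures. The 5 groups of Ern1 separated into 3 levels without overlap: untreated co-cultures on top, inhibitor-treated ones between, and monocultures lowest. Its log2 fold change against monoculture was 1.49 ± 0.04 in KO and 1.48 ± 0.04 in WT co-culture (limma, adjusted p = 5.34e-13 and 5.14e-13), the largest of the sensors. With inhibitor it fell by 0.54 in KO and by 0.60 in WT co-cultures on the log2 scale.

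For Atf6, the inhibitor-treated KO co-cultures gave 12.6, 12.7, 12.04 and 13.5 FPKM and the inhibitor-treated WT co-cultures 11.7, 11.3 and 12.7 FPKM. KO co-cultures gave 23.5, 22.2 and 25.4 FPKM, WT co-cultures 25.2, 20.5 and 21.4 FPKM and monocultures 8.42, 10.2 and 9.22 FPKM. Untreated co-cultures were above all other libraries, and the inhibitor-treated ones lay above the monocultures. The log2 fold change against monoculture was 1.27 ± 0.08 (KO) and 1.18 ± 0.08 (WT), and with inhibitor 0.42 ± 0.08 (KO) and 0.33 ± 0.08 (WT), all 4 past the threshold. Levels of Atf6b were 36.4, 38.7, 36.98 and 34.6 FPKM in KO and 33.5, 36.3 and 34.4 FPKM in WT co-cultures with inhibitor. In its absence they were 42.1, 48.3 and 46.8 FPKM in KO co-cultures, 47.1, 48.6 and 46.7 FPKM in WT co-cultures and 27.8, 23.6 and 25.8 FPKM in monocultures. Atf6b, also cut in the Golgi, kept more of its rise: with inhibitor its log2 fold change against monoculture was 0.50 ± 0.06 (KO) and 0.42 ± 0.06 (WT).

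In KO co-cultures with inhibitor Xbp1 stood at 71.8, 71.6, 68.6 and 71.1 FPKM, and in WT co-cultures with inhibitor at 64.1, 64.4 and 65.8 FPKM. The untreated KO co-cultures had 110.3, 107 and 110.4 FPKM, the untreated WT co-cultures 122, 111 and 114 FPKM and the monocultures 54.2, 57.7 and 57.1 FPKM. All co-culture libraries were above the monocultures, with and without inhibitor, and the inhibitor-treated ones were the nearer. The inhibitor lowered Xbp1 by 0.62 in KO and by 0.83 in WT co-cultures on the log2 scale (limma, adjusted p = 9.75e-10 and 9.14e-11). Gene-level FPKM cannot separate its spliced from its unspliced mRNA. IRE1 removes a 26-base stretch, in capitals below with flanking bases in lower case. It lies on the plus strand of chromosome 11 (chr11:5524282-5524307, GRCm38) in exon 4 of the transcript Xbp1-201 of GENCODE M21:
Xbp1: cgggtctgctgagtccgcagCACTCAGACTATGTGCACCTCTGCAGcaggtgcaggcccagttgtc

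Eif2ak3 was read at 17.6, 17.5, 18.1 and 17.97 FPKM in inhibitor-treated KO co-cultures and at 16.1, 15.8 and 16.5 FPKM in inhibitor-treated WT co-cultures. Without inhibitor it was at 15.5, 14.9 and 15.2 FPKM in KO co-cultures, 15.3, 15.04 and 14.8 FPKM in WT co-cultures and 16.7, 16.1 and 16.7 FPKM in monocultures. KO and WT co-cultures lay below all 3 monocultures, and the inhibitor-treated KO libraries lay above them. The log2 fold change against monoculture was -0.11 ± 0.03 in KO and -0.13 ± 0.03 in WT co-culture (limma, adjusted p = 0.00763 and 0.00336). The inhibitor raised it by 0.21 ± 0.03 in KO and by 0.09 ± 0.03 in WT co-cultures (adjusted p = 2.08e-05 and 0.0199). The KO fall against monoculture was not called after quantile normalisation (-0.08, adjusted p = 0.0611) or with voom (-0.09, adjusted p = 0.0699), and the WT fall was not when only the groups compared were fitted (adjusted p = 0.0548). The inhibitor call beside WT cells was lost in that fit too (adjusted p = 0.124), and without either of 2 libraries: adjusted p was 0.0725 without WT co-culture replicate 3 and 0.0792 without inhibitor-treated WT replicate 3. Eif2ak3 shares 485 exonic bases with Gm43292 on the other strand, which averaged 0.464 FPKM or less in every group.

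**Figure D2:**
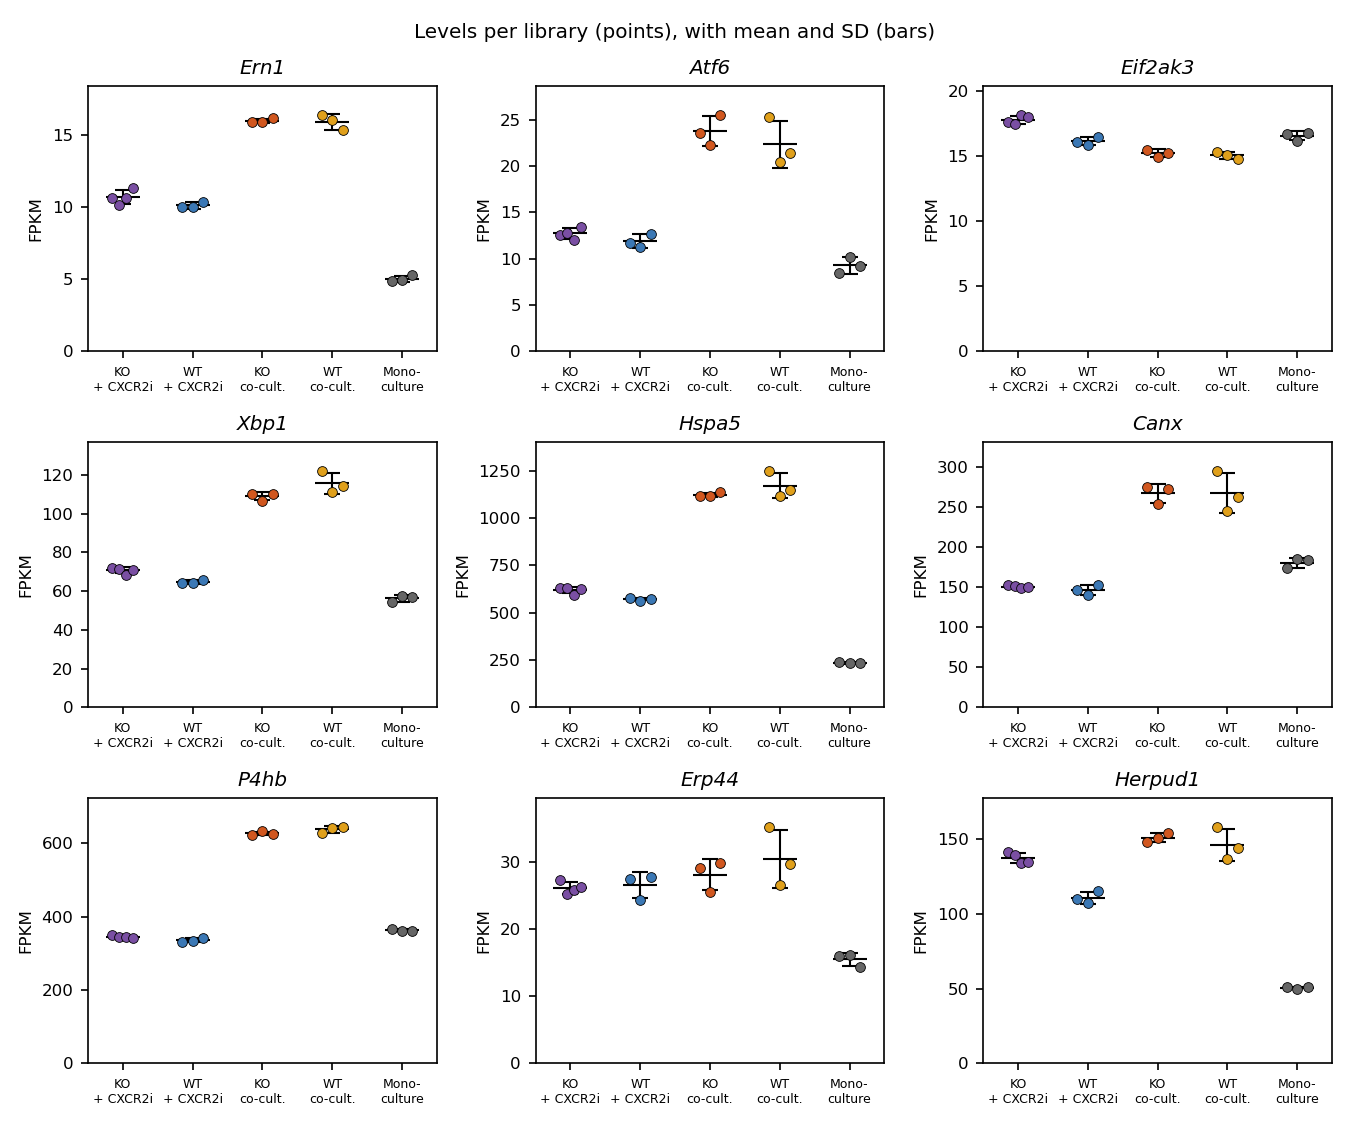
FPKM of 9 genes in each library (points, vertical axes from 0), with the mean and SD of each group; groups run from inhibitor-treated KO on the left to monoculture on the right. Hspa5 is at 1114 FPKM or more in all untreated co-cultures, Canx and P4hb drop to or under the monoculture level with inhibitor (P4hb not under each scaling, as given in the text), and Erp44 and Herpud1 keep most of their rise.

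Chaperones rose most. All 13 rose in both co-cultures, with a median log2 fold change of 1.58 in KO and 1.62 in WT co-culture, and all 13 were lowered by the inhibitor in both genotypes (medians -0.81 and -0.86). The top of the class was Sdf2l1, a small partner of the HSP70 machinery of the ER. For Sdf2l1, the inhibitor-treated KO co-cultures gave 88.8, 92.8, 84.3 and 74.9 FPKM and the inhibitor-treated WT co-cultures 76.9, 84.8 and 77.00 FPKM. KO co-cultures gave 149, 163 and 145 FPKM, WT co-cultures 153, 180.3 and 184 FPKM and monocultures 23.5, 24.1 and 22.6 FPKM. All untreated co-cultures lay above all treated ones, which in turn lay above the monocultures. Its mean was 6.52 times the monoculture mean in KO and 7.37 times in WT co-culture (log2 fold change 2.65 ± 0.08 and 2.83 ± 0.08; limma, adjusted p = 1.24e-12 and 5.96e-13). Creld2, another stress-induced ER protein, followed with 2.49 ± 0.10 (KO) and 2.62 ± 0.10 (WT).

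Hspa5 (BiP), the main HSP70 of the ER and the regulator that holds the sensors inactive, was the most abundant member in every co-culture group and the fourth in monoculture. Levels of Hspa5 were 629, 628, 593 and 623 FPKM in KO and 575, 563 and 575 FPKM in WT co-cultures with inhibitor. In its absence they were 1116, 1114 and 1135 FPKM in KO co-cultures, 1245, 1118 and 1149.7 FPKM in WT co-cultures and 241, 232 and 234 FPKM in monocultures. The groups with and without inhibitor did not overlap, and neither overlapped the monocultures. The log2 fold change against monoculture was 2.24 ± 0.04 (KO) and 2.31 ± 0.04 (WT), and with inhibitor 1.39 ± 0.04 (KO) and 1.27 ± 0.04 (WT). Hyou1, the large HSP70 relative that recharges BiP, was at 129 ± 4.86 FPKM in KO and 142 ± 2.63 FPKM in WT co-cultures, against 24.5 ± 0.379 FPKM in monocultures. It had the largest fall of all members with inhibitor beside WT cells (-1.17 ± 0.04), and Manf, a secreted stress-induced factor, had the largest beside KO cells (-1.07 ± 0.07). With inhibitor Manf was at 68.1 ± 3.08 FPKM in KO and 67.3 ± 3.50 FPKM in WT co-cultures. Manf shares 146 exonic bases with Dcaf1 on the other strand, which stood at 10.1 to 10.7 FPKM in all groups.

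The other chaperones rose by amounts between these and Canx. The HSP90 of the ER, Hsp90b1, had a log2 fold change of 1.79 ± 0.06 in KO and 1.90 ± 0.06 in WT co-culture. The J-domain partners of BiP rose by 1.47 to 1.58 (KO) and 1.51 to 1.62 (WT), from Dnajb9 through Dnajb11 to Dnajc3. Calr and Canx are the lectin chaperones that hold glycoproteins during folding, and they parted: Calr rose by 1.48 ± 0.04 (KO) and 1.49 ± 0.04 (WT), and Canx by 0.56 ± 0.06 and 0.56 ± 0.06. The nucleotide exchange factor Sil1 rose by 0.67 ± 0.07 and 0.66 ± 0.07, and Hspa13 by 0.70 ± 0.07 and 0.82 ± 0.07.

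In KO co-cultures with inhibitor Canx stood at 152, 151, 149 and 150.4 FPKM, and in WT co-cultures with inhibitor at 146, 140.5 and 152 FPKM. The untreated KO co-cultures had 275, 254 and 272 FPKM, the untreated WT co-cultures 295, 245 and 263 FPKM and the monocultures 174, 185 and 184 FPKM. Each inhibitor-treated library was below each monoculture, with a log2 fold change of -0.26 ± 0.05 in KO and -0.30 ± 0.06 in WT co-cultures (limma, adjusted p = 0.000516 and 0.00028). Canx stayed lower but was not called when libraries were scaled to 1 common sum (-0.11 and -0.15, adjusted p = 0.152 and 0.074) or quantile normalised (-0.10 and -0.15, adjusted p = 0.236 and 0.111). Hspa13 was at 6.64 ± 0.261 FPKM with inhibitor in KO and 6.97 ± 0.812 FPKM in WT co-cultures, against 6.31 ± 0.34 FPKM in monocultures, and was not called in either (adjusted p = 0.392 and 0.136). It was called in both with 1 common sum per library (0.20 in KO and 0.25 in WT), and in WT without inhibitor-treated WT replicate 2 (0.20, adjusted p = 0.0164). Sil1 was still 0.37 ± 0.06 (KO) and 0.20 ± 0.07 (WT) above monoculture, the WT value losing its call without monoculture replicate 3 (0.18, adjusted p = 0.0587) or inhibitor-treated WT replicate 2 (0.15, adjusted p = 0.0819).

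Disulfide isomerases rose in all 7 cases in both co-cultures (medians 0.82 in KO and 0.93 in WT), and 6 of 7 fell with inhibitor in each genotype (medians -0.67 and -0.73). Pdia4, which has several catalytic domains, rose most. Pdia4 was read at 292, 284, 281 and 289.7 FPKM in inhibitor-treated KO co-cultures and at 275, 270.2 and 277 FPKM in inhibitor-treated WT co-cultures. Without inhibitor it was at 556, 553 and 556 FPKM in KO co-cultures, 632, 602 and 609 FPKM in WT co-cultures and 158, 159 and 164 FPKM in monocultures. No groups of Pdia4 overlapped between treated, untreated and monoculture, and the KO co-cultures lay below the WT co-cultures. Its log2 fold change against monoculture was 1.78 ± 0.03 in KO and 1.93 ± 0.03 in WT co-culture, and the inhibitor changed it by -0.95 ± 0.03 and -1.16 ± 0.03. Pdia6 had 1.65 ± 0.05 (KO) and 1.75 ± 0.05 (WT), and Pdia3, the partner of the lectin chaperones, 1.11 ± 0.04 and 1.18 ± 0.04.

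P4hb, the classical protein disulfide isomerase, was the most abundant member in monoculture and the fourth in all co-culture groups. For P4hb, the inhibitor-treated KO co-cultures gave 348, 345, 343 and 342 FPKM and the inhibitor-treated WT co-cultures 331, 335 and 341 FPKM. KO co-cultures gave 622, 632 and 625 FPKM, WT co-cultures 628, 642 and 643 FPKM and monocultures 365, 362 and 361 FPKM. It rose by 0.79 ± 0.03 (KO) and 0.81 ± 0.03 (WT) in co-culture, and with inhibitor all 7 libraries lay below the 3 monocultures (-0.07 ± 0.03 in KO and -0.11 ± 0.03 in WT; limma, adjusted p = 0.0188 and 0.0022). The direction of that last difference turned with 1 common sum per library, to 0.08 in KO, where it was then called higher (adjusted p = 0.0269), and 0.04 in WT (adjusted p = 0.26). With quantile normalisation it turned to 0.14 in KO, again called (adjusted p = 0.0377), and 0.04 in WT (adjusted p = 0.512). With voom it was 0.01 in KO and -0.03 in WT, not called in either. The KO call was also lost with median ratio scaling, without a filter and without monoculture replicate 1 (-0.07 to -0.04, adjusted p 0.0564 to 0.135).

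Levels of Txndc5 were 50.6, 51.3, 49.97 and 48.9 FPKM in KO and 49.4, 52.1 and 48.2 FPKM in WT co-cultures with inhibitor. In its absence they were 79.4, 84.7 and 76.8 FPKM in KO co-cultures, 78.2, 87.3 and 85.2 FPKM in WT co-cultures and 49.4, 49.4 and 49.5 FPKM in monocultures. Txndc5, a thioredoxin-domain isomerase, was thus back within or next to the monoculture range with inhibitor (0.02 ± 0.04 in KO and 0.01 ± 0.05 in WT; adjusted p = 0.686 and 0.835), but was called higher with 1 common sum per library (0.17 and 0.16) and with quantile normalisation (0.12 and 0.13). Erp44, which retains client proteins that reach the early Golgi, was the opposite case. In KO co-cultures with inhibitor Erp44 stood at 27.3, 25.3, 25.9 and 26.2 FPKM, and in WT co-cultures with inhibitor at 27.5, 24.4 and 27.8 FPKM. The untreated KO co-cultures had 29.1, 25.5 and 29.8 FPKM, the untreated WT co-cultures 35.2, 26.6 and 29.7 FPKM and the monocultures 15.9, 16.1 and 14.4 FPKM. All co-culture libraries of Erp44 lay above the monocultures, and treated and untreated ones overlapped. The inhibitor difference was -0.10 ± 0.08 in KO (95% interval -0.27 to 0.08; adjusted p = 0.299) and -0.19 ± 0.09 in WT (95% interval -0.37 to 0.00; adjusted p = 0.0746). Without WT co-culture replicate 2 the WT value was called (-0.28, adjusted p = 0.0106). Txndc11 rose by 0.74 ± 0.05 (KO) and 0.82 ± 0.05 (WT), at the lowest level of the class (6.73 ± 0.181 FPKM in KO and 7.17 ± 0.356 FPKM in WT co-cultures, against 3.62 ± 0.179 FPKM in monocultures), and shares 75 exonic bases with Snn on the other strand. Its fall with inhibitor was -0.18 ± 0.05 in KO (adjusted p = 0.0032; -0.04, adjusted p = 0.54, with 1 common sum per library) and -0.34 ± 0.05 in WT.

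Degradation factors rose in all 10 tested cases in both co-cultures (median 1.01 in WT), and all 10 fell with inhibitor (medians -0.50 and -0.62). Sel1l, the adaptor of the ubiquitin ligase that exports misfolded proteins, led the class in both. Sel1l was read at 19.6, 18.6, 18.9 and 19.7 FPKM in inhibitor-treated KO co-cultures and at 18.9, 18.3 and 18.7 FPKM in inhibitor-treated WT co-cultures. Without inhibitor it was at 31.7, 32.3 and 32.2 FPKM in KO co-cultures, 33.4, 31.4 and 30.9 FPKM in WT co-cultures and 9.60, 10.5 and 10.3 FPKM in monocultures. Treated, untreated and monoculture libraries did not overlap. The log2 fold change was 1.57 ± 0.04 in KO and 1.56 ± 0.04 in WT co-culture (limma, adjusted p = 2.13e-13 and 2.07e-13). Its ligase Syvn1 (HRD1) rose by 1.10 ± 0.05 (KO) and 1.26 ± 0.05 (WT) and shares 91 exonic bases with Mrpl49 on the other strand. The channel-forming Derl1 rose by 1.33 ± 0.03 and 1.29 ± 0.03, and its relative Derl2 by 0.56 ± 0.06 and 0.58 ± 0.06.

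The mannosidase-like proteins that mark glycoproteins for destruction were graded. Edem1 rose by 0.95 ± 0.05 (KO) and 1.05 ± 0.05 (WT), Edem2 by 0.54 ± 0.05 and 0.58 ± 0.05, and Edem3 by 0.41 ± 0.06 and 0.39 ± 0.06, the smallest of the class. For Edem3, the inhibitor-treated KO co-cultures gave 11.4, 12.1, 11.8 and 11.1 FPKM and the inhibitor-treated WT co-cultures 12.02, 10.3 and 11.4 FPKM. KO co-cultures gave 15.3, 14.1 and 15.8 FPKM, WT co-cultures 15.9, 14.2 and 14.6 FPKM and monocultures 11.5, 10.5 and 11.4 FPKM. With inhibitor Edem3 overlapped the monoculture range in both genotypes, and it was called higher in KO with 1 common sum per library (0.20, adjusted p = 0.0168). The lectins that read those marks also differed. Os9 had log2 fold changes of 1.05 ± 0.11 (KO) and 0.97 ± 0.11 (WT), with the widest errors of the set, and Erlec1 of 0.74 ± 0.07 and 0.66 ± 0.07.

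Levels of Os9 were 111, 113, 115 and 99.1 FPKM in KO and 92.5, 104 and 93.5 FPKM in WT co-cultures with inhibitor. In its absence they were 130.5, 142 and 118 FPKM in KO co-cultures, 102, 137 and 133 FPKM in WT co-cultures and 68.98, 56.5 and 62.1 FPKM in monocultures. In Os9 the untreated and treated libraries overlapped beside WT cells. The inhibitor difference was -0.25 ± 0.10 in KO and -0.34 ± 0.11 in WT (limma, adjusted p = 0.0422 and 0.012). The KO call was lost without any 1 of 5 libraries, KO co-culture replicates 1 and 2 and inhibitor-treated KO replicates 1, 2 and 4 (-0.26 to -0.18, adjusted p 0.0521 to 0.174). The WT call was lost without WT co-culture replicate 2 or 3 (-0.29 to -0.27, adjusted p 0.0537 to 0.0608). With 1 common sum per library neither was called (-0.09 in KO and -0.19 in WT, adjusted p = 0.386 and 0.0892). The KO call was also lost without a filter (adjusted p = 0.0927), with median ratio scaling (0.0756) and without monoculture replicate 3 (adjusted p = 0.0517).

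Herpud1, a membrane protein that organises the degradation complex and the member with both ERSE-II and the ATF4 element shown above, kept most of its rise under the inhibitor. In KO co-cultures with inhibitor Herpud1 stood at 141, 139.5, 134 and 135 FPKM, and in WT co-cultures with inhibitor at 109.7, 107 and 115 FPKM. The untreated KO co-cultures had 148, 151 and 154 FPKM, the untreated WT co-cultures 158, 136 and 144 FPKM and the monocultures 50.9, 50.02 and 50.9 FPKM. All inhibitor-treated KO libraries were above all inhibitor-treated WT libraries, and overlapped the untreated WT range. Its log2 fold change against monoculture was 1.42 ± 0.04 with inhibitor in KO and 1.11 ± 0.05 in WT, beside 1.56 ± 0.05 and 1.51 ± 0.05 without it. The fall with inhibitor was -0.13 ± 0.04 in KO (limma, adjusted p = 0.0132; 0.03 and not called with 1 common sum per library; -0.12, adjusted p = 0.0512, without KO co-culture replicate 3) and -0.40 ± 0.05 in WT (adjusted p = 3.23e-06). The KO fall was not called after quantile normalisation (-0.12, adjusted p = 0.0583) or with voom (-0.09, adjusted p = 0.0549) either.

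Derl2 was read at 6.996, 7.19, 7.26 and 6.85 FPKM in inhibitor-treated KO co-cultures and at 6.75, 7.52 and 6.46 FPKM in inhibitor-treated WT co-cultures. Without inhibitor it was at 13.7, 12.6 and 13.4 FPKM in KO co-cultures, 13.4, 13.5 and 13.5 FPKM in WT co-cultures and 8.21, 8.36 and 9.48 FPKM in monocultures. With inhibitor all libraries of Derl2 lay below the monocultures, with log2 fold changes of -0.26 ± 0.05 (KO) and -0.29 ± 0.06 (WT; limma, adjusted p = 0.000535 and 0.000399). With 1 common sum per library they were -0.13 (KO) and -0.16 (WT), still called (adjusted p = 0.0451 and 0.0241). Derl2 shares 231 exonic bases with Mis12 on the other strand, which averaged 11.7 and 12.2 FPKM in KO and WT co-cultures with inhibitor, 15.1 and 15.7 FPKM without it, and 14.7 FPKM in monocultures. For Erlec1, the inhibitor-treated KO co-cultures gave 17.9, 17.8, 18.3 and 17.9 FPKM and the inhibitor-treated WT co-cultures 18.5, 15.3 and 16.7 FPKM. KO co-cultures gave 32.3, 32.6 and 36.4 FPKM, WT co-cultures 34.3, 29.5 and 31.6 FPKM and monocultures 19.2, 19.8 and 20.3 FPKM. Erlec1 was likewise below the monocultures in every treated library, called in WT (-0.22 ± 0.07, adjusted p = 0.00825) and not in KO (-0.13 ± 0.06, adjusted p = 0.0744). With 1 common sum per library the Erlec1 values were -0.08 (WT, adjusted p = 0.409) and 0.01 (KO, adjusted p = 0.871). The WT call was also lost with quantile normalisation (adjusted p = 0.063) and voom (0.0709). The KO value was called when only the groups compared were fitted (adjusted p = 0.0075), and without inhibitor-treated WT replicate 1 or 2 (adjusted p = 0.0472 and 0.0489).

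The part of each rise that remained with inhibitor differed widely between members. It was taken as the mean of treated co-cultures minus the monoculture mean, in percent of the same difference without inhibitor, of FPKM as deposited. For Erp44 84.5% in KO and 73.9% in WT co-cultures remained, for Herpud1 86.5% in KO and 62.8% in WT co-cultures, for Txndc11 71.1% in KO and 51.7% in WT co-cultures and for Os9 69.3% in KO and 55.7% in WT co-cultures. The chaperones with large rises kept less, such as Hspa5 with 43.2% in KO and 35.8% in WT co-cultures and Manf with 28.2% in KO and 25.7% in WT co-cultures. Among the sensors Ern1 kept 51.6% in KO and 46.8% in WT co-cultures, and Xbp1 27.3% in KO and 14.2% in WT co-cultures. Edem3 kept 12.5% in KO and 3.17% in WT co-cultures and Txndc5 2.36% in KO and 1.27% in WT co-cultures. For P4hb, Erlec1, Canx and Derl2 the percentage was below 0, meaning a level under monoculture: -6.91% in KO and -9.94% in WT co-cultures for P4hb and -34.9% in KO and -39.7% in WT co-cultures for Canx. With 1 common sum per library the shares were larger: P4hb turned to 7.72% in KO and 3.85% in WT, Erlec1 was at 1.49% in KO and -8.40% in WT, and Canx stayed below 0 (-15.9% in KO and -20.7% in WT). On that scale Txndc5 kept 20.8% in KO and 17.8% in WT, Edem3 46.2% in KO and 37.1% in WT, Xbp1 42.8% in KO and 26.5% in WT, Erp44 109% in KO and 94.2% in WT and Herpud1 103% in KO and 76.2% in WT.

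**Figure D3:**
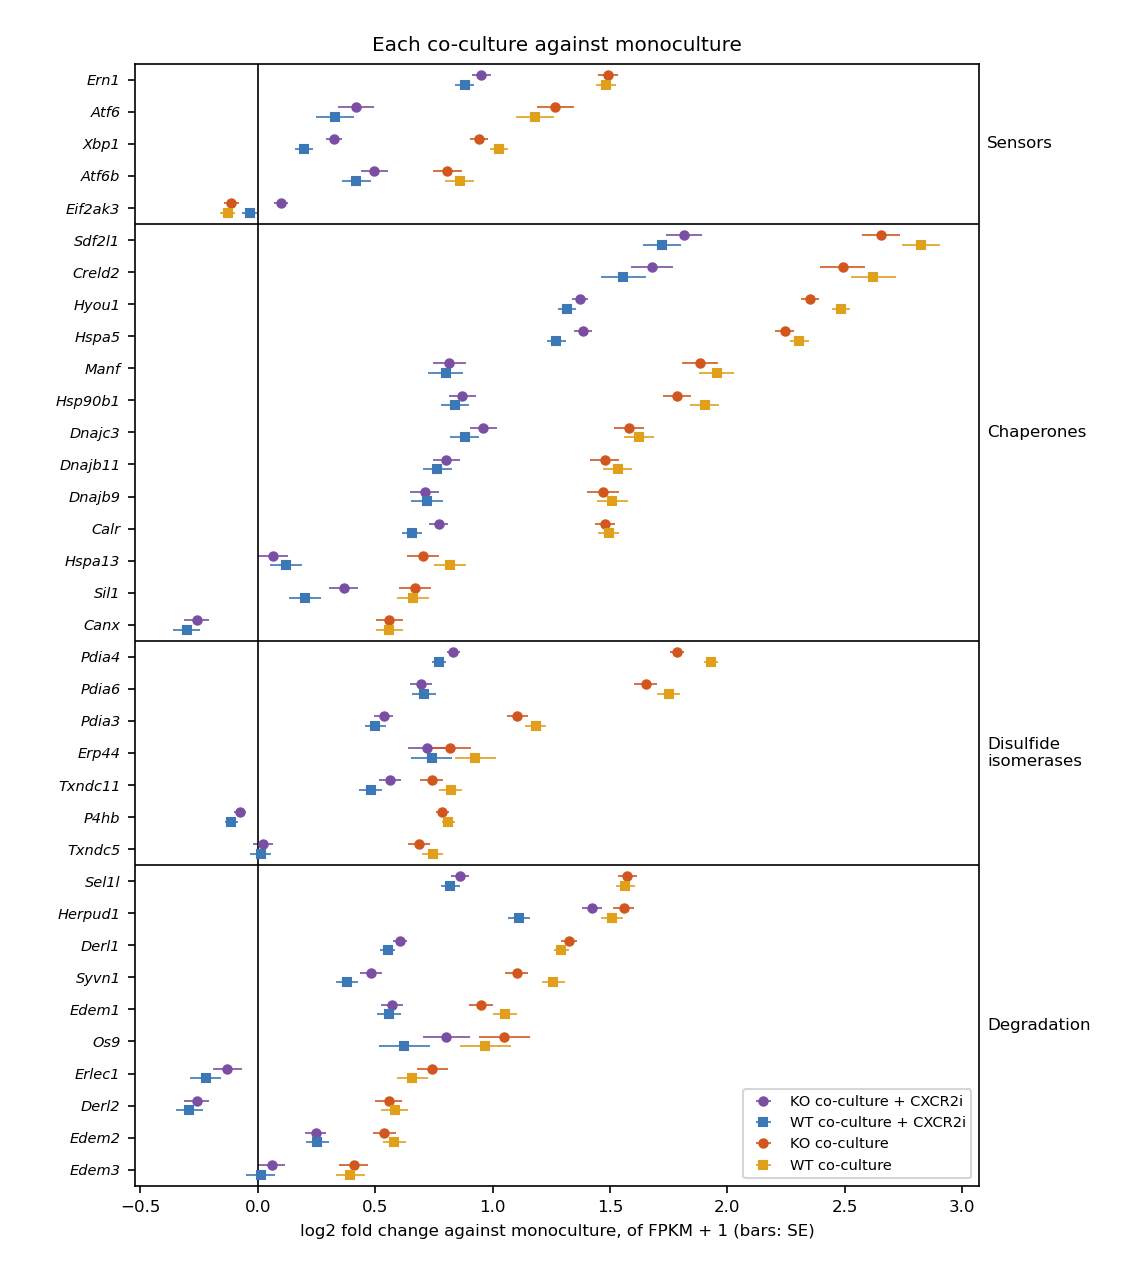
Log2 fold change of FPKM + 1 against monoculture for each of the 35 tested genes (bars: SE), for inhibitor-treated KO, inhibitor-treated WT, KO and WT co-cultures; rows are grouped by role and ordered by the WT co-culture value. The untreated points lie to the right of the treated ones in every row but Eif2ak3, the gap is small for Erp44 and for Herpud1 beside KO cells, and Canx, P4hb, Derl2 and Erlec1 cross 0 with inhibitor (P4hb and, in KO, Erlec1 not with 1 common sum per library).

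Few of these genes were called between cancer cell genotypes. Between KO and WT co-cultures 1 of 35 members was called, Pdia4, which was lower (-0.15 ± 0.03; limma, adjusted p = 0.0185), while 1.34% of all genes were lower and 1.65% higher. All 3 KO libraries of Pdia4 were below the 3 WT libraries, given above. That call was lost without any 1 of the 3 KO libraries (-0.15 to -0.14, adjusted p 0.0606 to 0.0634), and when only the groups compared were fitted (adjusted p = 0.483). It was also lost with 1 common sum per library (adjusted p = 0.079) and after quantile normalisation (adjusted p = 0.167), where Hyou1 was called instead (-0.16, adjusted p = 0.0247; without it -0.13, adjusted p = 0.0879). The other 34 members were not called, their values ran from -0.17 (Sdf2l1) to 0.09 (Atf6) with a median of -0.05, and 4 members passed an unadjusted p of 0.05. No 95% interval of a member reached below -0.35 or above 0.32 on the log2 scale.

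With inhibitor, 2 of 35 members were higher in KO than in WT co-cultures and none lower, beside 1.66% and 0.649% of all genes. Herpud1 was higher by 0.31 ± 0.04 (limma, adjusted p = 0.00173), with all 4 KO libraries above all 3 WT libraries. Eif2ak3 was higher by 0.13 ± 0.03 (adjusted p = 0.034), also without overlap, but lost its call without any 1 of the 7 libraries (0.12 to 0.15, adjusted p 0.0591 to 0.135), and with 1 common sum per library (0.13, adjusted p = 0.133), quantile normalisation (0.0542) and only the groups compared (0.0861). Without WT co-culture replicate 1, Xbp1 (0.13, adjusted p = 0.0324) and Hspa5 (0.11, adjusted p = 0.0412) were called as well. The other 33 ran from -0.06 (Hspa13) to 0.18 (Os9), the 35 members had a median of 0.05 and 8 of them an unadjusted p under 0.05, and the 95% intervals stayed between -0.19 and 0.40. Summed over the set, the inhibitor-treated KO libraries had 3767 to 3908 FPKM and the inhibitor-treated WT libraries 3604 to 3660 FPKM.

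The difference of both inhibitor effects (KO minus WT) was called for 1 member, Pdia4, at 0.21 ± 0.04 (limma, adjusted p = 0.038), while 0.535% of all genes had a called value above 0 and 0.281% below 0. The fall of Pdia4 with inhibitor was 0.95 in KO and 1.16 in WT co-cultures on the log2 scale. The call was lost when any 1 of 11 of the 13 co-culture libraries was left out, all but WT co-culture replicates 1 and 2 (0.20 to 0.22, adjusted p 0.0658 to 0.0997), and without monoculture replicate 2 or 3 (adjusted p = 0.0561 and 0.0564), which share the estimate of spread. It was also lost with 1 common sum per library (0.21, adjusted p = 0.139), without a filter (0.08) and with quantile normalisation (0.321). Without a trend (0.0606), with only the groups compared (0.0752) and with the replicate block (0.0982) it was lost as well. The call was kept with a pseudocount of 0.1, a filter at a mean of 5 FPKM, median ratio scaling and voom. Herpud1, with 0.26 ± 0.06, was not called (adjusted p = 0.0855), and was without WT co-culture replicate 2 (0.31, adjusted p = 0.0392). All 35 values were above 0, with a median of 0.10 beside -0.01 over all genes; the members share libraries and are not independent of each other.

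**Figure D4:**
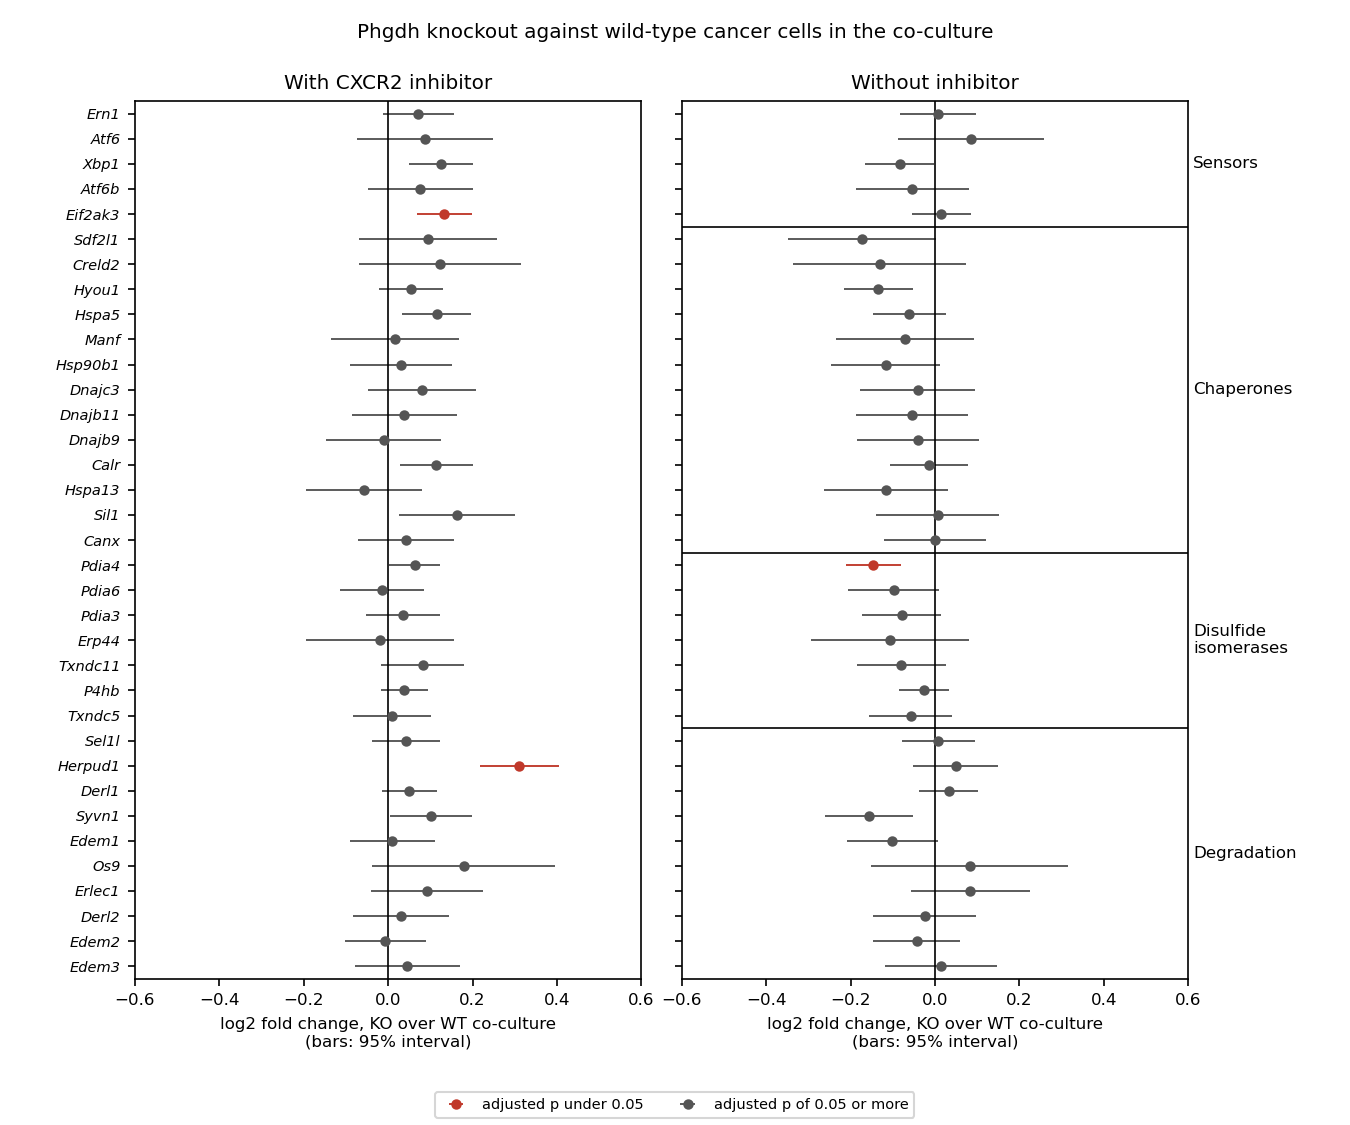
Log2 fold change of KO over WT co-culture with its 95% interval for each of the 35 tested genes, with inhibitor (left) and without (right); red marks an adjusted p under 0.05. Red points are Herpud1 and Eif2ak3 on the left and Pdia4 on the right, and most other intervals include 0.

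The promoter elements shown above can be set beside these values. The 10 tested members with ERSE or ERSE-II had a median log2 fold change of 1.57 in KO and 1.58 in WT co-culture against monoculture, from Canx to Creld2. The 18 tested members with a window and neither element had medians of 0.88 and 0.95, from Eif2ak3 to Sdf2l1. With inhibitor the medians of the first were -0.76 (KO) and -0.87 (WT), and of the second -0.55 and -0.64. The ranges overlapped, Sdf2l1 had the largest rise of all with neither element, and Derl3 held ERSE and was read at or near 0. Outside the set, 28 other gene symbols had ERSE, of which 5 were tested. Of these 4 rose and 1 fell in both co-cultures, from Alg12 (1.65 in KO and 1.69 in WT), a mannosyltransferase of N-glycan assembly, to Spats2l (-0.34 and -0.21). With inhibitor 2 of the 5 rose and 2 fell beside KO cells (median -0.05), and 1 rose and 3 fell beside WT cells (median -0.12). Spats2l rose most with inhibitor, by 1.30 beside KO and 1.05 beside WT cells. Of 10 other symbols with ERSE-II, 7 were tested, of which 3 rose in KO and 7 in WT co-culture, led by Krtcap2 (1.42 and 1.41), a subunit of oligosaccharyltransferase. With inhibitor 0 of the 7 rose and 4 fell beside KO cells (median -0.48), and 0 rose and 5 fell beside WT cells (median -0.53). These counts stand beside the shares of all genes given above.

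Neighbouring parts of the pathway, not members of the set, were read from 9 lists, and are given for WT co-culture with their median log2 fold change, beside the shares of all genes given above and all-gene medians of 0.01 for co-culture and -0.01 for the inhibitor. The PERK branch and the integrated stress response had 11 higher and 3 lower of 16 (median 1.15) against monoculture. Trib3, a pseudokinase induced by ATF4, was at 154 ± 16.3 FPKM in WT co-cultures, against 13.3 ± 1.01 FPKM in monocultures (3.44 ± 0.08), while the adaptor Nck1 was lower (-0.47 ± 0.07). With inhibitor the list had 2 higher and 10 lower of 16 (median -0.40), or 4 higher and 8 lower (median -0.24) with 1 common sum per library, with Atf3, a stress-induced transcription factor, at 9.87 ± 1.08 FPKM, against 33.3 ± 1.86 FPKM without inhibitor (-1.66 ± 0.06). Beside KO cells Atf3 was at 23.9 ± 0.291 FPKM with and 32.8 ± 1.12 FPKM without inhibitor, and the difference of both inhibitor effects was 1.22 ± 0.08 (limma, adjusted p = 4.3e-06).

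The translocon and N-glycosylation genes, which bring proteins into the ER and attach glycans, had 25 higher and 1 lower of 30 (median 0.70) against monoculture and 1 higher and 26 lower of 30 (median -0.50) with against without inhibitor. Their highest value was that of Rpn1, a subunit of oligosaccharyltransferase (1.60 ± 0.04), and their lowest that of the signal peptidase subunit Spcs1 (-0.31 ± 0.08). Genes of ER oxidation and further isomerases had 6 higher and 2 lower of 16 (median 0.19), from Ero1lb, an oxidase that recharges isomerases (1.74 ± 0.10), to the peroxiredoxin Prdx4 (-0.49 ± 0.10). The other genes of the IRE1 branch had 6 higher and 1 lower of 8 (median 0.36), from Wfs1 (1.55 ± 0.06) to Bak1 (-0.45 ± 0.09). ATF6 processing and the CREB3 family had 5 higher and 3 lower of 11 (median 0.16), from Creb3l1 (0.53 ± 0.12) to Creb3 (-0.38 ± 0.08). The cytosolic and membrane side of degradation had 10 higher and 3 lower of 23 (median 0.15): the membrane protein Selenos had 1.66 ± 0.04, and Vcp, the ATPase that pulls proteins out of the membrane, -0.45 ± 0.07. Turnover of the ER by autophagy had 5 higher and 4 lower of 10 (median 0.18), from Ufl1 (0.79 ± 0.07) to Rtn3 (-0.86 ± 0.06). With inhibitor, ATF6 processing and the CREB3 family had 3 higher and 4 lower (median 0.04), from Creb3l3 (1.43) to Creb3l1 (-0.77). The IRE1 list had 3 higher and 5 lower (median -0.36), and ER oxidation 4 and 8 (-0.20). Cytosolic and membrane degradation had 3 and 14 (-0.26), and ER autophagy 1 and 6 (-0.26). With 1 common sum per library these counts were 6 and 3, 3 and 4, 5 and 5, 6 and 9, and 3 and 4.

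Chaperones of other compartments gave other counts than those of the ER. Cytosolic chaperones had 0 higher and 18 lower of 19 (median -0.51) in WT co-culture against monoculture, with Hspb1 at 36.6 ± 2.67 FPKM, against 147 ± 16.9 FPKM (-1.98 ± 0.07) as the lowest and Ahsa1 as the highest (-0.19 ± 0.10). With inhibitor they had 11 higher and 3 lower of 19 (median 0.25), or 13 higher and 1 lower (median 0.41) with 1 common sum per library, led by the inducible HSP70 gene Hspa1b, which was at 45.2 ± 4.36 FPKM with and 0.468 ± 0.105 FPKM without inhibitor (4.97 ± 0.10; limma, adjusted p = 1.51e-14). Beside KO cells Hspa1b was at 51.2 ± 4.70 FPKM with and 0.54 ± 0.0665 FPKM without inhibitor. Hspa1b has a near-identical copy, Hspa1a, and reads may be shared between them. Mitochondrial chaperones and proteases had 5 higher and 0 lower of 9 (median 0.26) against monoculture, the highest being the protease Lonp1 (1.31 ± 0.05) and the lowest Trap1 (-0.10 ± 0.05), and 2 higher and 7 lower of 9 (median -0.20) with against without inhibitor (2 higher and 3 lower with 1 common sum per library). No list's median changed its sign under any of the 3 other scalings in these 2 comparisons.

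**Figure D5:**
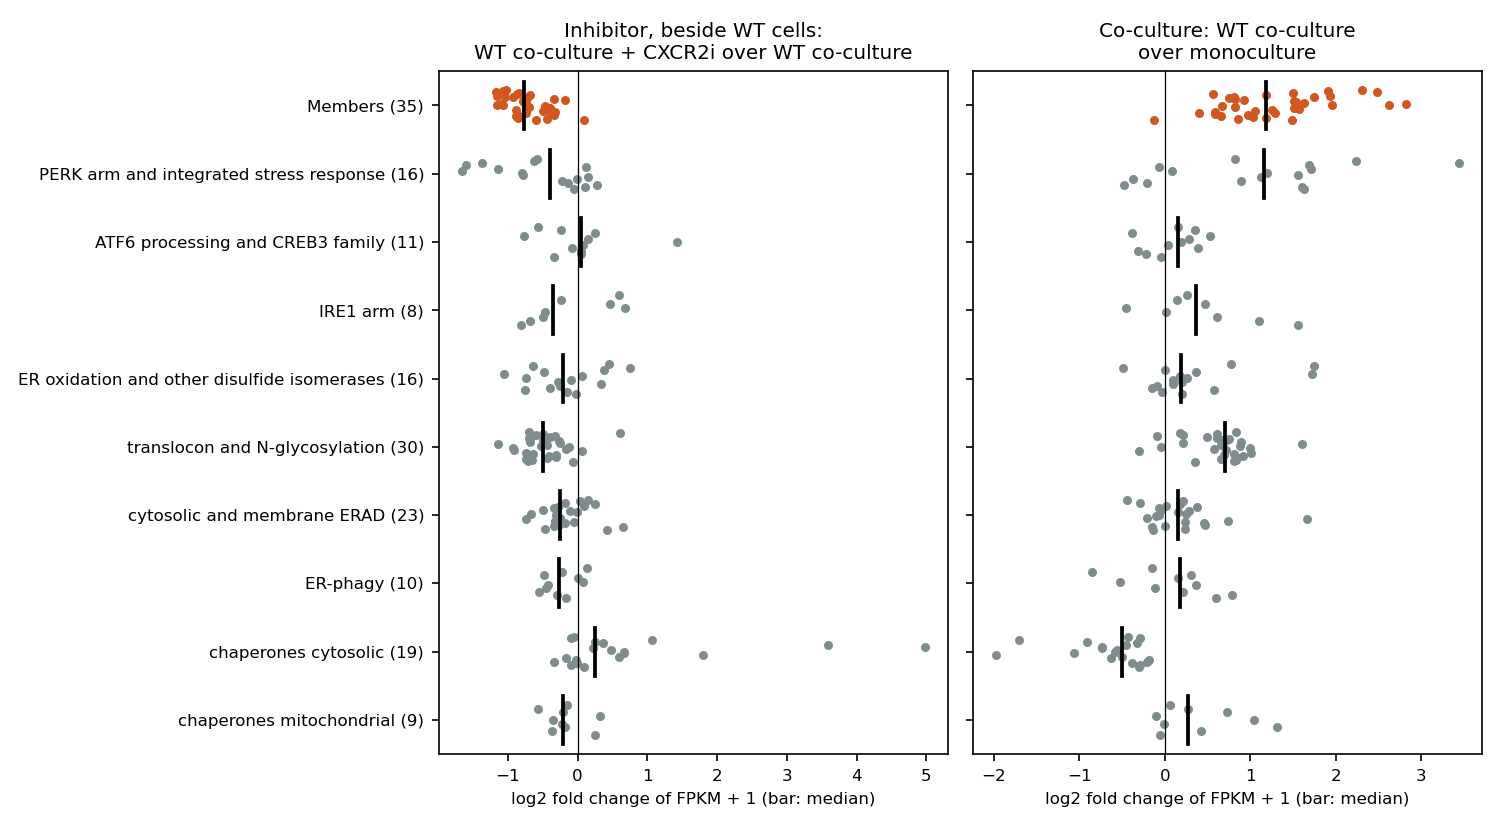
Each point is 1 tested gene and each black bar the median of its list, with the number of tested genes in brackets; the left panel is inhibitor-treated over untreated WT co-culture and the right panel WT co-culture over monoculture, as log2 fold change of FPKM + 1. The members (orange) lie mostly left of 0 on the left and right of 0 on the right, most translocon genes lie on the same sides, and the median of the cytosolic chaperones lies on the opposite side in each panel.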

How the data were processed

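RNA was sequenced from 16 libraries of hepatocytes in 5 groups, and the deposited table holds FPKM per gene for each library. The authors aligned reads to the mouse genome (GRCm38, mm10) with HISAT2, per the submitters' processing notes. No source used here gives its version, the counter or the strandedness. FPKM are scaled to each library's fragments and gene length, so a change in a few very abundant genes shifts all others.

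Since FPKM are not counts, log2(FPKM + 1) of the 11395 genes with a mean of at least 1 FPKM was fitted in limma 3.58.1 (R 4.3.3) with an intensity trend, 1 mean per group and 11 residual degrees of freedom over all 5 groups. P-values were adjusted by Benjamini-Hochberg over all 11395 genes in each of 9 comparisons, and 0.05 was the threshold. The fitting steps were tested on simulated data with known changes. Multiplied by gene length, nonzero FPKM were whole multiples of the smallest value, taken as 1 fragment (99.999% within 0.1 of a whole number). This gave 15001948 to 21266170 fragments per library and the input of the voom alternative. Sequences came from RefSeq windows (GRCm38.p6), with exons from GENCODE M21.

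The 36 members and 9 pathway lists were chosen with earlier results of these data known. Values per library are given for the 5 sensors and, in each other class, for the members with the largest and smallest rise in co-culture. They are also given for Hspa5 and for further members whose change with inhibitor differed from most of their class. The largest falls with inhibitor, in Hyou1 and Manf, are given as means and fold changes. From each other list up to 2 genes were named per comparison, those with the largest and smallest change; Hspa1a is named as a copy of Hspa1b, and Phgdh as the gene knocked out. Replicate numbers were not taken as pairs. Alternatives changed the pseudocount, filter, scaling, trend, tool, groups fitted and replicate block, and left out each library in turn. The scaled lists and shares of the rise, and leaving out libraries of groups that a comparison does not use, were added after seeing the data.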

Additional observations from a re-analysis of the deposited data

Results flagged for a closer look

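As fitted, the inhibitor effect on Pdia4 was called different between KO and WT co-cultures (limma, interaction of 0.21 on the log2 scale, adjusted p = 0.038). Pdia4 fell with inhibitor in both, to levels of 281 to 292 FPKM in KO and 270.2 to 277 FPKM in WT co-cultures. The call was lost without any 1 of 11 of the 13 co-culture libraries (adjusted p 0.0658 to 0.0997), without monoculture replicate 2 or 3 (0.0561 and 0.0564) and with 1 common sum per library (0.139). It was lost too without a filter, with quantile normalisation, without a trend, with only the groups compared and with the replicate block (adjusted p 0.0606 to 0.321). In the group of 4 libraries, none of the 36 members had a library far from the other 3 by Dixon's criterion.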

How the results depend on the processing

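Total counts of called members in the co-culture and inhibitor comparisons stayed within 1.5 times under every alternative run. In the counts of this section only libraries of the groups compared were left out. Leaving out a library of another group changed calls of Pdia4, Os9, Hspa5, Xbp1 and Erlec1, given above. Leaving out 1 library gave 35 in KO and 35 in WT against monoculture, and 30 to 31 with inhibitor against monoculture. For the inhibitor it gave 33 to 34 (KO) and 32 to 34 (WT). Between KO and WT co-cultures the count of 1 became 2 with voom, 0 with 1 common sum per library and 0 when only the groups compared were fitted (where 17 genes in all were called, against 341), and 0 to 1 without 1 library. With inhibitor the count of 2 became 1 with 1 common sum, with quantile normalisation, with only the groups compared and with the replicate block. It was also 1 without any 1 library of the groups compared. For the difference of inhibitor effects the count of 1 became 0 without a filter, with 1 common sum, with quantile normalisation, without a trend, with only the groups compared and with the replicate block, 2 with voom, and 0 to 2 without 1 library. Signs turned for P4hb against monoculture with 1 common sum per library (0.0773 in inhibitor-treated KO and 0.0406 in inhibitor-treated WT), with quantile normalisation (0.136 and 0.0448) and in KO with voom (0.00711), for Eif2ak3 in inhibitor-treated WT against monoculture (0.11) and for Herpud1 with inhibitor beside KO cells (0.0260), both with 1 common sum. With that scaling the median of all genes was 0.11 to 0.13 in the comparisons of inhibitor-treated co-cultures, against -0.02 to -0.01 as fitted. Of called genes, 65.0% (KO) and 65.7% (WT) were then higher with inhibitor than without, against 50.1% and 50.4% as fitted. In the comparisons with monoculture these shares were 62.6% and 63.1%, against 48.0% and 48.1% as fitted. Relative to the scaled median P4hb was at -0.03 (KO) and -0.07 (WT) against monoculture. Other causes were not tested. Of 5390 values, 70 lost their call, 17 gained one and 7 turned where either value was called. The other 5296 kept their side of the threshold, 78 of them with a turned sign where neither value was called (such as Erlec1 in inhibitor-treated KO against monoculture). Replicate numbers gave no sign of pairing (30 pairs, correlation of deviations -0.30 to 0.27, median 0.01), so the block is given for completeness; it also left P4hb in inhibitor-treated KO against monoculture (adjusted p = 0.0563) and the inhibitor effect on Os9 beside KO cells (-0.20, adjusted p = 0.126) uncalled and called Erp44 with inhibitor beside WT cells (adjusted p = 0.0435). The depth of the libraries limits Derl3 and little else in the set.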
